A study of Homo sapiens with 3 samples.

Results

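The peaks described here are the places in 3' untranslated regions (3'UTRs) where RNA was recovered with the helicase DDX6 by eCLIP. A peak was included when the authors' annotation of its list gave 3'UTR as its first region, with no limit on its p-value or fold. This gave 25296 of 123298 peaks (20.5%) in the list of IP replicate 1 and 12967 of 62411 (20.8%) in that of IP replicate 2, or 38263 of 185709 in all. The cells were MOLM-13, a human acute myeloid leukaemia line, grown without any treatment named in the labels. Both immunoprecipitation (IP) libraries were made with 1 DDX6 antibody, and a single input library was made from the same line without an antibody. eCLIP joins RNA to bound protein with ultraviolet light, trims the RNA with RNase and sequences what the antibody recovers. The labels do not state whether the IP replicates were separate cultures. The p-values below therefore reflect only how much these libraries varied, and that variation may be technical.

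The 3'UTR follows the stop codon and is not translated. It holds most of the sites through which microRNAs and RNA-binding proteins, such as those that read AU-rich elements, set the lifetime and translation of an mRNA. DDX6 is a DEAD-box helicase that works with the decapping machinery and with the CCR4-NOT deadenylase complex, which is itself brought to mRNAs largely through their 3'UTRs, and it is needed to form P-bodies, the cytoplasmic granules that store untranslated mRNA.

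Counted reads numbered 4643494 and 1244213 in IP replicates 1 and 2 and 7807540 in the input. Of these, 1046455 (22.5%), 230030 (18.5%) and 803714 (10.3%) were 3'UTR reads. Among exonic reads alone the 3'UTR took 33.3%, 29.5% and 33.5%. There were 0.650 and 0.577 3'UTR reads per coding read in IP replicates 1 and 2 and 1.03 in the input. IP replicate 1 was therefore the deeper list, and a peak absent from the list of IP replicate 2 may be one that was not detectable at its depth. Both peak lists were compared by the authors with the same input, so their folds are not independent of each other. Intervals given for shares are exact Clopper-Pearson intervals at 95% and cover counting error only.

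The 3'UTR peaks were narrow. Their median width was 56 bases in IP replicate 1 (interquartile range 36 to 81, from 1 to 335) and 46 bases in IP replicate 2 (30 to 65, from 1 to 282). Peaks in coding sequence had a median of 42 bases in both lists and 5'UTR peaks 44 and 48, so 3'UTR peaks were the widest of these in IP replicate 1 but not in IP replicate 2. Peaks under 10 bases numbered 509 and 455. In all, 1563166 and 642129 bases of 3'UTR lay under a peak. According to the authors' annotation, 53.5% and 54.1% of the 3'UTR peaks also lay in another annotated gene, and 1667 (6.59%) and 852 (6.57%) lay in an exon of one. The gene named for such a peak is the one the annotation put first.

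Most of these peaks stood only moderately above the input. The authors' log2 fold of IP over input had a median of 1.69 in IP replicate 1 (quartiles at 1.01 and 2.47) and 2.06 in IP replicate 2 (1.26 to 2.86), and reached 6.79 and 5.96. The medians were lower than those of coding peaks (2.01 and 2.32) and of 5'UTR peaks (2.23 and 2.64) in both lists. A fold below 0 was listed for 1313 peaks (5.19%) and 516 peaks (3.98%), each with a -log10 p of 0, so the authors' p-value speaks only of enrichment. A -log10 p of at least 3 was reached by 9300 and 2719 peaks, and 85 and 11 stood at the upper limit of 400. The folds come from few reads at many peaks, since 25296 peaks shared 3407 distinct fold values in IP replicate 1 and 12967 shared 1206 in IP replicate 2.

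**Figure D1:**
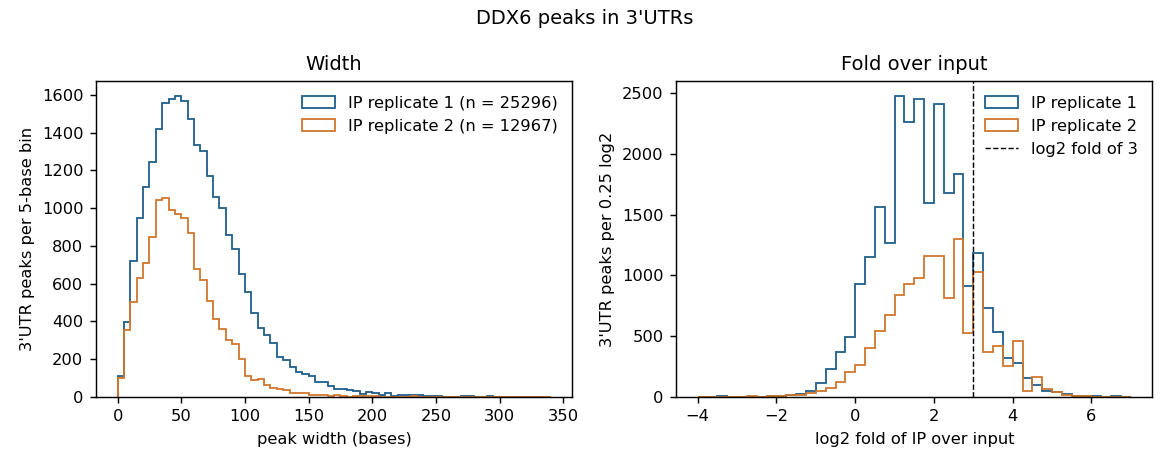
Histograms of the 3'UTR peaks of IP replicate 1 (n = 25296) and IP replicate 2 (n = 12967), with the number of peaks on the vertical axes: width in bases (left) and the authors' log2 fold of IP over input (right, dashed line at 3). Most peaks of both libraries lie left of the dashed line, and IP replicate 1 has the higher median width (56 against 46 bases) and the lower median fold (1.69 against 2.06).

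A peak was called enriched at a -log10 p of at least 3 and a log2 fold of at least 3. By this rule 2669 of the 25296 3'UTR peaks were called in IP replicate 1 (10.6%, interval 10.2% to 10.9%), where 11.5% of the peaks of all annotations were. In IP replicate 2, 1404 of 12967 were called (10.8%, interval 10.3% to 11.4%), where 12.9% of all peaks were. The share among coding peaks was 14.9% in both libraries and among 5'UTR peaks 18.6% and 18.3%. Peaks of distal introns were called less often, at 0.924% and 3.78%. Of all called peaks, 3'UTRs held 18.9% (18.2% to 19.5%) in IP replicate 1 and 17.5% (16.6% to 18.3%) in IP replicate 2. Called 3'UTR peaks were wider than the others, with medians of 63 against 55 bases and 56 against 45 bases, and had median log2 folds of 3.51 and 3.64.

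**Figure D2:**
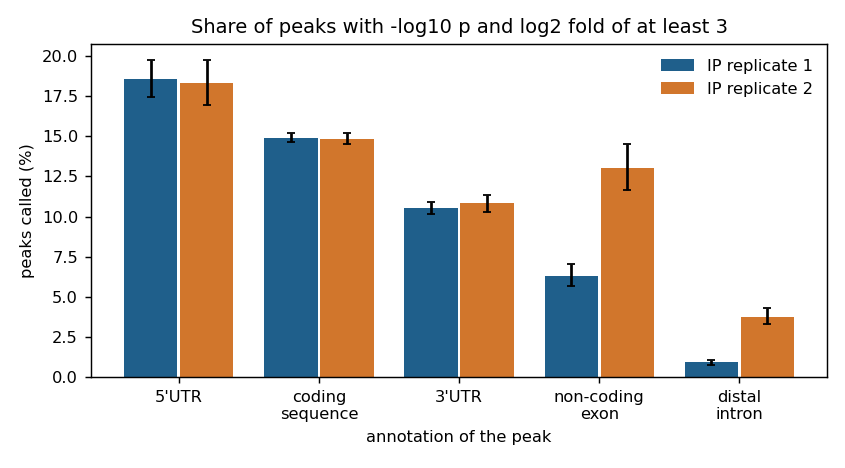
Percentage of peaks called at -log10 p and log2 fold of at least 3, by annotated region and DDX6 IP library, with exact 95% binomial intervals as error bars. The 3'UTR value is 10.6% in IP replicate 1 and 10.8% in IP replicate 2, below coding sequence and 5'UTR in both.

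Most neighbouring 3'UTR peaks of a gene lay apart, and a minority touched. In IP replicate 1, 17907 pairs of neighbours had a median gap of 147 bases (interquartile range 51 to 404), and 2174 pairs (12.1%) touched. In IP replicate 2, 7882 pairs had a median gap of 254 bases (90 to 615), and 425 pairs (5.39%) touched. Joining touching peaks left 23119 and 12542 sites. In a separate joining of called peaks alone, 2317 and 1368 called sites were left. The longest called site was 443 bases with 12 peaks, in the 3'UTR of ZFP36L2 (hg19, chr2:43449549-43449991, IP replicate 1), so a peak count overstates the number of separate places at such genes.

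A 3'UTR peak was listed for 7389 genes in IP replicate 1 and for 5085 in IP replicate 2. The median gene had 2 peaks in both. A single peak was listed for 2436 genes (33.0%) and 2048 genes (40.3%), while 431 genes with at least 10 peaks held 23.0% of the peaks in IP replicate 1 and 71 such genes held 6.76% in IP replicate 2. The maximum was 44 and 25. Called peaks lay in fewer genes: 1282 and 885 genes (17.4% in each library) had at least 1, and 117 genes with at least 5 held 32.9% of the called peaks in IP replicate 1, against 33 genes with 14.9% in IP replicate 2. Peaks per gene followed read depth. Over the 7194 3'UTRs with enough reads to test, the number of peaks and the number of 3'UTR reads of the same library had a Spearman correlation across genes of 0.716 and 0.779, and genes are not independent replicates. From the lowest to the highest quartile of input reads the mean number of peaks in IP replicate 1 rose from 1.42 to 6.28, and the share of genes with a called peak from 13.0% to 20.5%.

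The libraries shared part of their 3'UTR positions. With at least 1 base in common on the same strand and no limit on p or fold, 7082 peaks of IP replicate 1 (28.0%, interval 27.4% to 28.6%) met a 3'UTR peak of IP replicate 2, and 6689 peaks of IP replicate 2 (51.6%, interval 50.7% to 52.4%) met one of IP replicate 1. The shares for coding peaks were 34.1% and 56.5%, and for 5'UTR peaks 38.9% and 52.3%. At the level of genes, 4646 had a 3'UTR peak in both lists, which is 62.9% of the genes of IP replicate 1 and 91.4% of those of IP replicate 2. Shared peaks were wider than the rest (medians of 70 against 51 bases, and 51 against 40 bases). A wider peak meets the rule of 1 shared base more easily, so the rule itself favours this difference. The median log2 fold of shared peaks was 1.70 against 1.67 in IP replicate 1 and 1.87 against 2.23 in IP replicate 2. Boundaries were seldom the same. The 7486 overlapping pairs had a median of 35 bases in common and a median distance of 20 bases between their starts, 1312 pairs (17.5%) started within 5 bases of each other, and 5 had both boundaries alike.

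The authors' deposited list of reproducible peaks held 339 3'UTR peaks among 1587 (21.4%), in 145 genes. Each had the boundaries of a peak in 1 of the libraries' lists, 205 from IP replicate 1 and 134 from IP replicate 2. Their median width was 58 bases and the median log2 fold given in the authors' deposited table was 3.69. In the same deposited table ZFP36L2 had 21 of them, ZFP36 12, IRS2 11, RREB1 11, AHNAK 10, CPEB2 9, FUT4 8 and TNF 8, while 75 of the 145 genes had 1.

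Shared called sites were ranked by the smaller of both folds, with 1 site per gene, and the leading 10 are named here. The 2 peaks of a site overlapped by as little as 1 base (ZFP36) and by at most 79 bases (GEMIN5). The leading 3 lay in mRNAs of early response and inflammatory genes. TNF encodes the cytokine tumour necrosis factor, whose 3'UTR is known for its AU-rich elements. All of its 17 3'UTR peaks in IP replicate 1 and all 4 in IP replicate 2 were called and stood at the -log10 p limit of 400. They lay within 749 bases (hg19, chr6:31545327-31546075, ENSG00000232810.3) with median log2 folds of 5.36 and 4.64. The leading shared pair was chr6:31545432-31545439 in IP replicate 1 (log2 fold 6.16) and chr6:31545373-31545438 in IP replicate 2 (5.02). The highest fold of any TNF peak in IP replicate 1 was 6.70, at chr6:31545582-31545601, a stretch with no peak in the list of IP replicate 2. CXCL8 (ENSG00000169429.6), which encodes the neutrophil chemokine interleukin-8, had 7 and 5 3'UTR peaks, all called, with a leading site at chr4:74608218-74608253 (5.50) that lay inside a peak of IP replicate 2 (4.98). IER3 (ENSG00000137331.11), an early response gene that affects cell survival, had 8 and 4 peaks, of which 8 and 3 were called, and its leading site at chr6:30711632-30711687 had folds of 5.01 and 4.84. TIPARP encodes an ADP-ribosyltransferase induced by the aryl hydrocarbon receptor, and its leading site was chr3:156424306-156424391 (4.59 and 5.10).

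Other leading sites lay in genes for regulators of mRNA stability and translation. ZFP36 (ENSG00000128016.4) encodes tristetraprolin, which binds AU-rich elements and recruits the CCR4-NOT complex, and its 14 and 9 3'UTR peaks were all called within 586 bases of chr19:39899382-39899967. Its related gene ZFP36L2 had 40 and 15 peaks, of which 29 and 9 were called, with top log2 folds of 5.07 and 4.18. CPEB2 (ENSG00000137449.11) encodes a cytoplasmic polyadenylation element binding protein. Of its 26 peaks in IP replicate 1, 25 were called, and all 11 in IP replicate 2, with top log2 folds of 6.79 and 5.55. GEMIN5 (ENSG00000082516.8) encodes an RNA-binding subunit of the SMN complex, and all 4 of its peaks in each library were called, the leading one at chr5:154267417-154267691 (4.51) over a narrower peak of IP replicate 2 (4.96). BCL2L11 encodes the pro-apoptotic protein BIM, and differed from these in having 2 called peaks in each library among 13 and 4. The remaining leading sites were in ZBTB10 (4.50 and 5.06), a zinc-finger transcription factor gene, and RBM48 (4.47 and 4.81), whose product takes part in splicing of minor introns.

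Another 7 genes stood out for their number of called peaks, counted by the smaller of both libraries' counts. FUT4 (ENSG00000196371.2), which encodes the fucosyltransferase that makes the myeloid antigen CD15, had 31 and 19 peaks, of which 15 and 12 were called, over chr11:94278949-94283057. RREB1, a zinc-finger transcription factor gene, had 22 of 30 and 9 of 14 peaks called. IRS2, an adaptor of the insulin receptor, had 16 of 20 and 7 of 13. MACF1, which links actin and microtubules, had 12 of 12 and 8 of 9. AKAP11, which anchors protein kinase A, had 13 of 21 and 7 of 10. MIDEAS, a scaffold of a histone deacetylase complex, had 11 of 14 and 7 of 10, and AHNAK, a very large scaffold protein, 15 of 18 and 6 of 9. In all 7 the share called exceeded the background of 10.6% and 10.8%, and these genes were picked by that count, so this is a description.

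**Figure D3:**
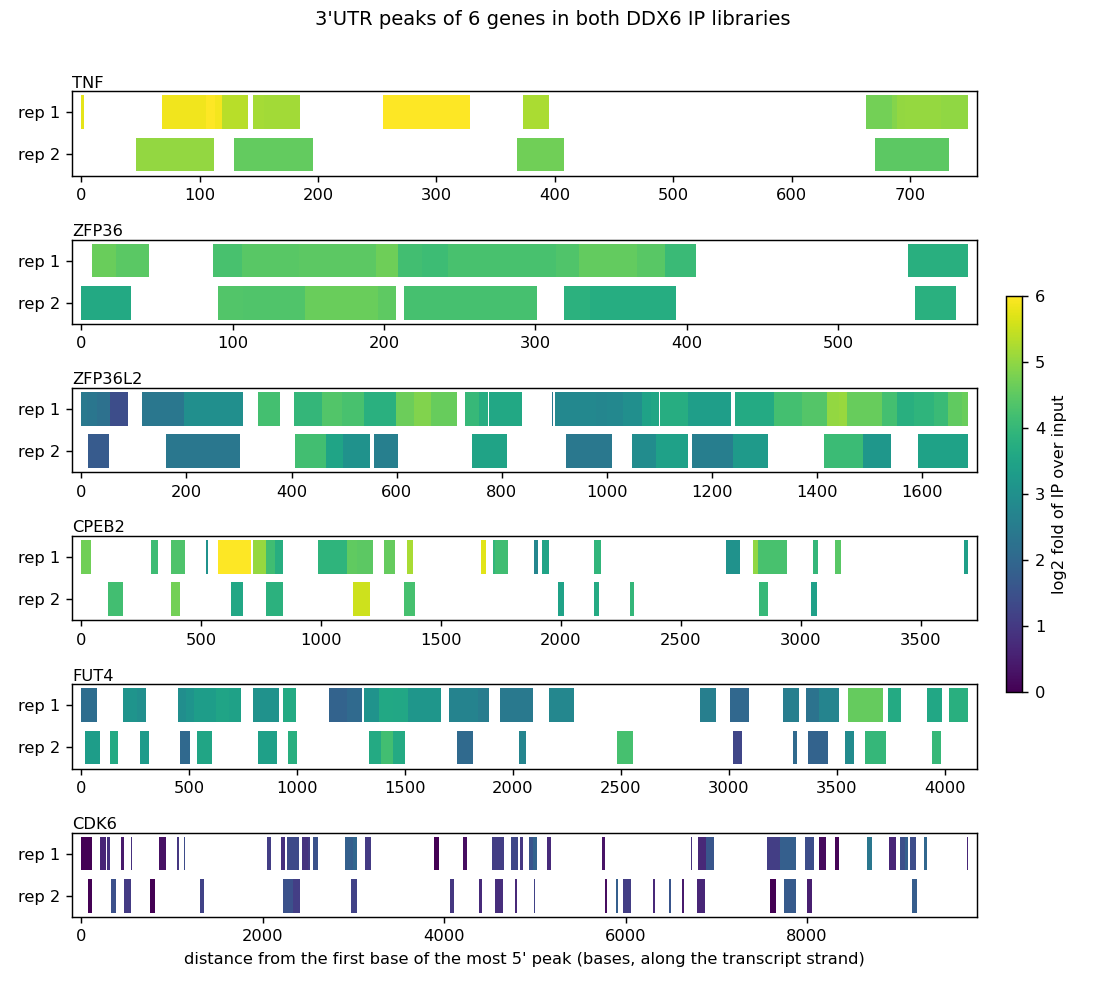
Positions of 3'UTR peaks in 6 genes for each DDX6 IP library, as distance in bases along the stretch that holds the peaks, coloured by the authors' log2 fold over input on a scale that ends at 0 and 6. Touching peaks of like fold appear as 1 block. TNF, ZFP36, ZFP36L2, CPEB2 and FUT4 carry peaks with log2 folds above 3, while the 44 and 24 peaks of CDK6 all lie at 2.38 or below.

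Many peaks did not mean many enriched peaks. CDK6 (ENSG00000105810.5), the cell-cycle kinase of the G1 phase, had 44 3'UTR peaks in IP replicate 1, the most of any gene there, and 24 in IP replicate 2, over 9776 bases (chr7:92234452-92244227). None was called in either list, and their median log2 folds were 1.004 and 0.991. HOOK3, a dynein adaptor gene, had 37 and 25 peaks with 1 called in each, and PANK3, which starts coenzyme A synthesis, 25 and 18 with 1 and 0 called. TAOK1, a kinase gene, had 31 and 18 with 5 and 7 called. At the other end were the shared peaks with the lowest folds among those with a -log10 p of at least 3 in both lists. Such a p at a low fold takes many reads, so this rule favours mRNAs with many reads. These peaks lay in HNRNPA1 (log2 folds 0.60 and 0.70), an RNA-binding protein gene, and the translation elongation factor gene EEF2 (0.77 and 0.72). The others lay in the ribosomal protein gene RPS28 (0.83 and 0.83), the leukocyte actin-bundling gene LCP1 (0.93 and 0.90) and ZFR (0.95 and 0.90), a zinc-finger RNA-binding protein gene. None of these 5 genes had a called 3'UTR peak.

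Reads summed over each whole 3'UTR were then tested, in 1 edgeR quasi-likelihood fit with all 28825 gene regions and TMM scaling. Of 7194 tested 3'UTRs, 1717 (23.9%) were higher in the IP and 491 (6.83%) lower, called when the Benjamini-Hochberg adjusted p was under 0.05, where 24.5% of all gene regions were higher and 31.9% lower. That background holds 9153 intron regions, of which 83.0% were lower. Of coding regions 51.2% were higher and 0.208% lower, and of 5'UTRs 33.2% and 4.49%. The median log2 fold over the tested 3'UTRs was 0.28. DESeq2 called 747 higher and 66 lower. Scaling to library size alone moved the median to 0.92 and called 3327 higher and 75 lower, so directions here are relative to the TMM reference. The input was assumed to vary like the IP libraries. Under 10 input reads were counted for 43 of the tested 3'UTRs, which passed the filter of 10 reads in at least 2 libraries only through both IP libraries. All 43 are among the 1717 called higher, a direction that the filter favours, so they are no separate result. Peaks and summed reads come from the same libraries, so the following is a description. Of 523 tested 3'UTRs with a called peak in both lists, 494 were higher and 0 lower (median 1.75), of 4975 with uncalled peaks alone 574 and 389 (0.09), and of 694 with no peak 39 and 102 (-0.21).

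The 10 genes with the leading shared sites were all called higher in reads summed over the 3'UTR, with log2 folds from 1.63 to 4.26. These genes were picked by peak folds of the same libraries, so the calls and p-values are no separate support. TNF had 6524 and 1265 reads in IP replicates 1 and 2 and 318 in the input. Its log2 fold was 4.26 (SE 0.48, edgeR adjusted p = 3.22e-16), or 19.1-fold. ZFP36 had 2825, 674 and 239 reads, a log2 fold of 3.59 (SE 0.43, edgeR adjusted p = 1.16e-14). IER3 had 2261, 392 and 171 reads (3.56, SE 0.42) and CXCL8 1995, 378 and 198 (3.22, SE 0.40). The lowest fold of a single IP library among these 4 genes was 2.96, for CXCL8 in IP replicate 2. CPEB2 had 2313, 403 and 218 reads (3.24, SE 0.41), TIPARP 567, 119 and 59 (3.22, SE 0.39) and GEMIN5 191, 51 and 16 (3.67, SE 0.47). Folds were lower for ZBTB10 with 1091, 224 and 245 reads (2.09, SE 0.36), BCL2L11 with 613, 124 and 180 (1.70, SE 0.34) and RBM48 with 96, 25 and 33 (1.63, SE 0.44). The RBM48 call (edgeR adjusted p = 0.000682) was lost with DESeq2 (adjusted p = 0.0619).

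The 7 genes picked for their number of called peaks were called higher, from the same libraries and so again without separate support. FUT4 had 2371, 552 and 495 reads (log2 fold 2.28, SE 0.39) and RREB1 2911, 701 and 452 (2.73, SE 0.41). The others were MACF1 (2.92), AHNAK (2.85), IRS2 (2.64), MIDEAS (2.51) and AKAP11 (2.23). CDK6 had 3803, 758 and 3649 reads and a log2 fold of -0.02 (SE 0.37, edgeR adjusted p = 0.962), with 0.15 and -0.23 in the single IP libraries. TAOK1 stood at 1.45 (edgeR adjusted p = 0.000158) and PANK3 at 0.70 (edgeR adjusted p = 0.074). PANK3 was called with library-size scaling (1.34, edgeR adjusted p = 0.000374) and with the filter of 30 reads (0.90, edgeR adjusted p = 0.0204), but not with DESeq2 (adjusted p = 0.115). HNRNPA1 was lower, with 702, 147 and 1104 reads (-0.70, edgeR adjusted p = 0.0484), a call lost with DESeq2, with library-size scaling and at 30 reads or more. No value was obtained for ZFP36L2, which has no line in the count tables, nor for HOOK3, whose 3'UTR is listed at 0 reads in every library although peaks lie in it. In the list of IP replicate 1, 194 genes with 595 3'UTR peaks had no line in the count tables and another 78 had a 3'UTR listed at 0.

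Gene lists were described by the counts of their members and their median log2 fold. These are to be read beside 23.9% higher, 6.83% lower and a median of 0.28 over all 7194 3'UTRs. The lists were chosen with earlier results of these data known, so their counts are a description and not a test. Of 45 tested early response and inflammatory genes, 39 had a higher 3'UTR and 0 a lower one (median 1.81), and 16 had a called peak in both lists (35.6%, against 7.27% of all tested 3'UTRs). TNF, CXCL8 and TNFAIP3, which encodes an inhibitor of NF-kB signalling, had the most called peaks of this list. TNFAIP3 had 9 and 4 called peaks and a 3'UTR log2 fold of 2.74 (SE 0.37). In DESeq2 28 of the 45 were higher and 0 lower.

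Genes for chromatin and transcription factors were also often higher. Of 94 chromatin modifiers 51 were higher and 1 lower (median 1.04), with 20 called in both lists. Their leading members were the histone demethylase gene KDM5B (log2 fold 2.89, SE 0.38), JMJD1C (2.36, SE 0.36), of the same enzyme family and needed for leukaemia cell growth, and ARID1A (2.18, SE 0.36), a subunit of the BAF remodelling complex. Of 188 ZNF genes, most of which encode zinc-finger transcription factors, 120 were higher and 8 lower (median 1.47). ZNF217 (3.09, SE 0.38), ZNF507 (2.88, SE 0.37) and ZNF516 (1.65, SE 0.35) had the most called peaks. Of 55 myeloid transcription factors and leukaemia regulators 24 were higher and 1 lower (median 0.73). Among them GFI1, a repressor needed for neutrophil formation, stood at 2.19 (SE 0.35), IRF2BP2 at 1.69 (SE 0.38) and ZEB2 at 0.996 (SE 0.35, edgeR adjusted p = 0.01). The ZEB2 call was lost with no filter beyond 1 read. Over the 4 alternatives (DESeq2, library-size scaling and both other read filters) the number called higher ran from 20 to 77 for chromatin modifiers. It ran from 64 to 149 for ZNF genes and from 12 to 40 for the myeloid and leukaemia list. The read filters also changed how many genes were tested, for ZNF genes to 250 at 1 read and 88 at 30 reads.

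Genes that control division and death held a further part. Of 47 cell cycle and mitotic genes 20 were higher and 1 lower (median 0.58), led by the proliferation marker gene MKI67 (2.40, SE 0.37), the kinase gene WEE1 (1.59, SE 0.36) and the transcription factor gene E2F3 (1.55, SE 0.34). Of 29 apoptosis and p53 pathway genes 12 were higher and 1 lower (median 0.68), among them the cyclin-dependent kinase inhibitor gene CDKN1B (1.75, SE 0.35) and PMAIP1 (1.74, SE 0.37), which encodes the BH3-only protein NOXA. Of 55 genes for P-body components and mRNA decay, among them partners of DDX6, 19 were higher and 5 lower (median 0.45), with ZFP36 and CPEB2 as described above. DESeq2 called 10 of these 55 higher and 0 lower. Over the same alternatives the number higher ran from 12 to 34 for the cell cycle list, from 7 to 19 for the apoptosis list and from 8 to 32 for the decay list.

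Ribosomal protein genes went the other way in the main fit, while the direction of the translation factors changed with the settings. Of 62 cytosolic ribosomal protein genes 2 had a higher and 30 a lower 3'UTR (median -0.91), and none had a called 3'UTR peak in both lists. With library-size scaling 7 were higher and 8 lower (median -0.27), and DESeq2 gave 0 and 9. Their many processed pseudogenes could take or add reads, so single members are uncertain. Of 41 translation factors 3 were higher and 8 lower (median -0.22), but with library-size scaling 12 were higher and 1 lower (median 0.42). With the filter of 30 reads 4 of 34 were higher and 3 lower (median 0.0016). The direction of this list therefore depends on scaling and filter. EIF1, which selects the start codon, stood at 2.44 (SE 0.38) with 8 and 4 called peaks, and EIF3A at 1.56 (SE 0.35). Of 19 glycolysis and glucose transport genes 5 were higher and 2 lower (median 0.01), including SLC2A1, the gene of glucose transporter GLUT1 (2.17, SE 0.43), and hexokinase gene HK2 (1.75, SE 0.35). The clustered histone genes, whose mRNAs end in a stem-loop without a poly(A) tail, had 24 of 31 3'UTRs higher and 1 lower (median 1.33) but no called peak in both lists. The number higher ran from 15 to 27 over the alternatives. Histone gene copies are alike, and how reads that fit several copies were counted is not given in the sources used here.

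**Figure D4:**
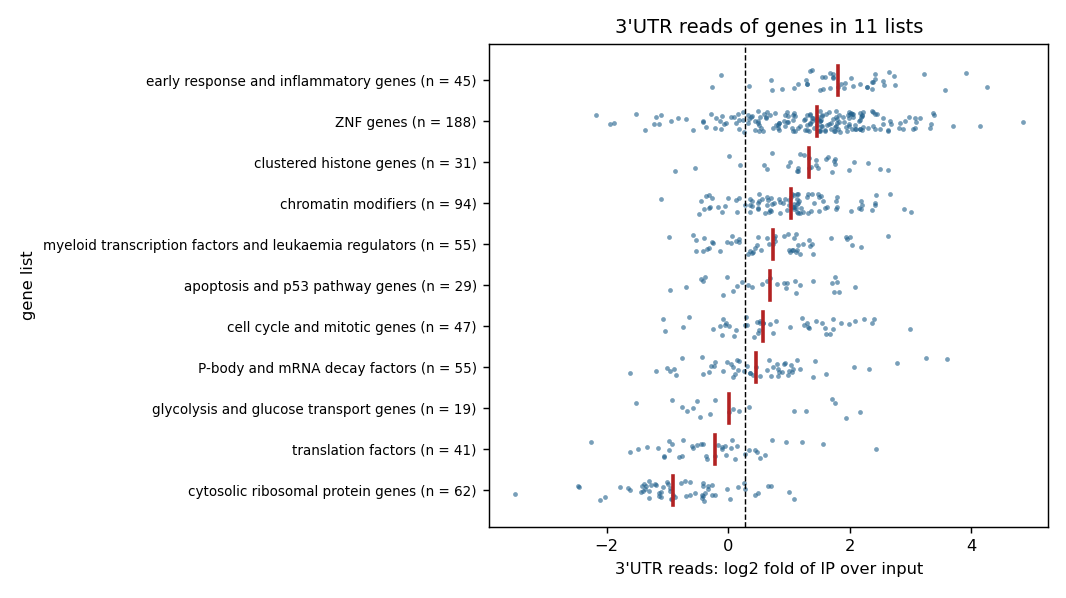
Log2 fold of 3'UTR reads in DDX6 IP over input for the members of 11 gene lists, 1 dot per gene, with the median of each list as a red tick and the median of all 7194 tested 3'UTRs (0.28) as a dashed line. The early response and inflammatory list has the highest median (1.81) and the cytosolic ribosomal protein genes the lowest (-0.91).

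Enrichment of a 3'UTR often came with enrichment of the coding region of the same mRNA. Of the 1282 genes with a called 3'UTR peak in IP replicate 1, 924 (72.1%) also had a called coding peak, and in IP replicate 2 it was 562 of 885 (63.5%). Among genes with uncalled 3'UTR peaks alone the shares were 26.1% and 27.8%. Within a gene, the median log2 fold of its 3'UTR peaks lay below that of its coding peaks by a median of 0.51 over 6800 genes in IP replicate 1 (73.0% of genes lower) and 0.47 over 4410 in IP replicate 2 (69.3% lower). Called peaks in the 3'UTR but none in coding sequence or 5'UTR were found for 337 genes (26.3%) and 304 genes (34.4%). Introns and non-coding exons were not checked for this. Of these genes, 52 were of this kind in both lists. Coding reads could still be enriched. The coding region of SLC2A1 had a log2 fold of 1.81 (edgeR adjusted p = 4.31e-05), and its 3'UTR did not differ from it (0.37, edgeR adjusted p = 0.581). Those of the 52 with most called peaks, named after their values were seen, included TET3, a methylcytosine dioxygenase gene (3 and 5 called peaks), TENT5A, a poly(A) polymerase gene (5 and 3), TMEM170B (4 and 3), ITPRIP (3 and 4), SLC2A1 (3 and 3) and FRAT2, a Wnt pathway gene (3 and 3).

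The difference between 3'UTR and coding region was tested on reads for 6552 genes with edgeR, a comparison chosen after seeing the data, in which scaling cancels out. The IP over input fold was lower in the 3'UTR for 1938 genes (29.6%) and higher for 46 (0.702%) when called at an adjusted p (Benjamini-Hochberg) under 0.05, with a median difference of -0.82 log2. DESeq2 called 205 lower and 7 higher. The IP over input difference between regions was larger in the 3'UTR for the centrosome scaffold gene PCNT, which had 128 and 28 IP reads and 11 input reads in the 3'UTR, and 476 and 109 IP reads and 217 input reads in coding sequence. The difference was 2.36 log2 (SE 0.48, edgeR adjusted p = 3.85e-05). NOTCH1, the receptor gene, had 359, 90 and 43 reads in the 3'UTR and 276, 84 and 142 in coding sequence (difference 1.99, SE 0.38, edgeR adjusted p = 6.5e-06). The histone gene H2BC5 had 119, 55 and 27 against 419, 125 and 336 (2.07, SE 0.40, edgeR adjusted p = 9.2e-06). These 3 were also called by DESeq2.

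The remaining genes of the leading 10 on the 3'UTR side had smaller support. MBD6 (1.88), the ubiquitin ligase gene HERC2 (1.83), the kinetochore motor gene CENPE (1.75) and the purine synthesis gene PFAS (1.74) were not called by DESeq2. Neither was ENSG00000198339.3 (1.60), whose identifier was matched to no symbol here. The pyrimidine synthesis gene CAD (2.09) and MYBBP1A (1.69), which encodes a nucleolar protein, had no adjusted p in DESeq2. MACF1 (1.39, SE 0.33), AHNAK (1.34, SE 0.32) and GEMIN5 (1.51, SE 0.52), described above for their called peaks, were on this side as well. On the coding side the ribosomal protein gene RPL37A had the largest difference. It had 232, 29 and 143 reads in the 3'UTR and 34742, 8383 and 1601 in coding sequence (-4.08, SE 0.38, edgeR adjusted p = 7.02e-23). It was followed by ZNF226 (-3.75), NABP1 (-3.61), RNPC3 (-3.48) and FUNDC2 (-3.36). DESeq2 also called RPL37A and NABP1 and gave the other 3 no adjusted p. These 3 rest on few reads: the 3'UTR of RNPC3 had 12, 1 and 61, that of ZNF226 16, 4 and 44 and that of FUNDC2 11, 3 and 41. In IP replicate 2 alone ZNF226 stood at -3.10, NABP1 at -2.87 and FUNDC2 at -2.33. CDK6 (-1.12, SE 0.33, edgeR adjusted p = 0.00561), PANK3 (-1.24, SE 0.33) and TAOK1 (-1.15, SE 0.33) lay on the coding side too, and so did ZEB2 (-2.17, SE 0.31, edgeR adjusted p = 1.07e-09). For TNF (-0.67, SE 0.33, edgeR adjusted p = 0.109), ZFP36 (0.23, SE 0.32), FUT4 (0.22, SE 0.34), RREB1 (0.33), IRS2 (0.45), MIDEAS (0.01), AKAP11 (-0.28), CPEB2 (-0.59), TIPARP (-0.12) and BCL2L11 (-0.04) the difference did not pass the test. It passed on the coding side for the other genes with leading shared sites, CXCL8 (-1.40, edgeR adjusted p = 0.00118), IER3 (-1.01, edgeR adjusted p = 0.0238), RBM48 (-1.88, edgeR adjusted p = 0.00225) and ZBTB10 (-0.83, edgeR adjusted p = 0.0472).

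The lists were read against the 29.6% of all genes called on the coding side. The share was 62.9% for ribosomal protein genes (39 of 62, with 1 on the 3'UTR side) and 51.2% for translation factors (21 of 41, with 0). In the apoptosis and p53 list 13 of 26 genes were on the coding side and 1 on the 3'UTR side. The share was 43.4% for the myeloid and leukaemia list (23 of 53, with 0) and 42.6% for P-body and decay genes (23 of 54, with 0). The share was near that of all genes for ZNF genes (54 of 172, 31.4%), chromatin modifiers (29 of 93, 31.2%) and early response and inflammatory genes (13 of 42, 31.0%). Cell cycle and mitotic genes (13 of 46, 28.3%) and glycolysis and glucose transport genes (5 of 17, 29.4%) were near it as well. The clustered histone genes had 3 on the 3'UTR side and 2 on the coding side among 28 and a median difference of 0.37.

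**Figure D5:**
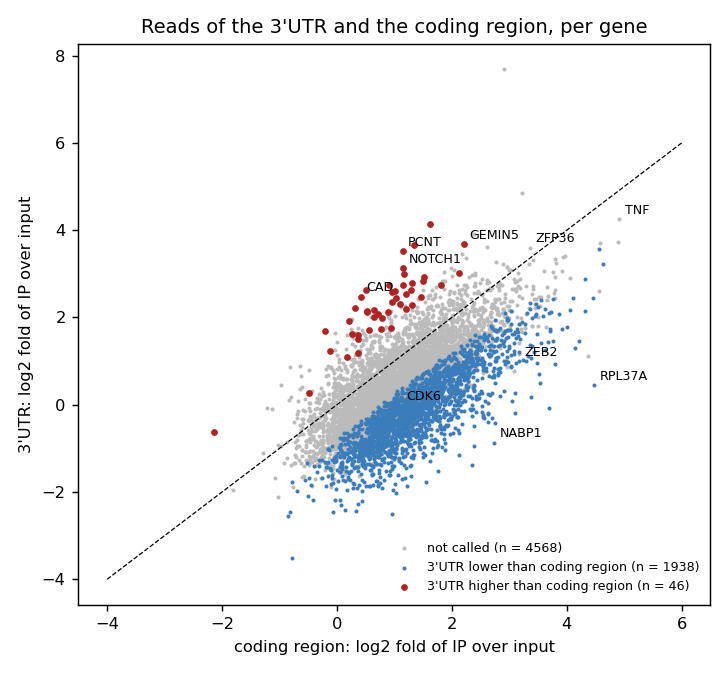
Log2 fold of DDX6 IP over input for the coding region (horizontal) and the 3'UTR (vertical) of 6552 genes, coloured by the edgeR call on their difference. The 1938 genes with a lower 3'UTR lie under the diagonal and the 46 with a higher 3'UTR above it.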

How the data were processed

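DDX6 eCLIP of MOLM-13 cells gave 2 IP libraries and 1 input library. The submitters' processing notes name cutadapt, UMI-tools, SAMtools and STAR, and the build hg19. Not given in the sources used here are tool versions, peak caller, counter, annotation and strand treatment. The authors deposited 1 annotated peak list per IP library, called per library. These deposited lists give each peak a -log10 p-value against the input and a log2 fold of IP over input, identified from the values and capped at a -log10 p of 400. The authors' deposited list of reproducible peaks has the same measures, and the way both libraries were combined in it is not given in the sources used here. Raw counts of reads by gene and region were deposited by the authors too. Lines for column totals and intergenic reads (4.05%, 3.78% and 2.63% of reads) were left out of the tests.

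Peak starts were converted to count from 1. Of 7828 identifiers with a 3'UTR peak, 7742 matched a symbol. Overlaps needed at least 1 base on the same strand. Gene regions with at least 10 reads in at least 2 libraries were tested with edgeR 4.0.16 (glmQLFit, glmQLFTest, TMM over exonic and intronic rows, Benjamini-Hochberg over all gene regions, called under 0.05). Only the 2 IP libraries inform the spread, with 1 residual degree of freedom and a common dispersion of 0.0356 (coefficient of variation 18.9%), and the input was assumed to vary like them. A fit with library and region terms compared 3'UTR and coding reads of 6552 genes (common dispersion 0.0139). The count fits were tested on simulated data with few changed rows, where the region fit missed most 2-fold changes. The fit between regions was simulated at the dispersion of the region fit (0.0356 rather than 0.0139). The changes it missed there therefore do not measure what it misses in the data. A difference that did not pass is not shown to be absent. Each SE was calculated back as the absolute log2 fold divided by the square root of the quasi-likelihood F statistic. It uses a spread pooled over genes rather than that of the gene itself. Folds of single IP libraries used a prior count of 2. Fold values are on the log2 scale.

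Named genes were the 10 with the largest smaller fold among shared called peaks, the 10 with most called peaks and the 5 with most peaks (both by the smaller of both libraries' counts), the 5 lowest shared folds at a -log10 p of at least 3, and up to 3 members per list. For the difference between regions, the 10 largest positive and 5 largest negative called differences were named, a rule chosen after seeing the data. Members, lists and tests were chosen with earlier results of these data known. Alternatives were DESeq2 1.42.0, library-size scaling over all counted reads, other read filters, other peak thresholds, other overlaps and single IP libraries. Peak sequences were not analysed here. Python 3.11.15 and R 4.3.3 were used.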

Additional observations from a re-analysis of the deposited data

How the results depend on the processing

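The number of called 3'UTR peaks followed the thresholds. At a log2 fold of at least 1 IP replicates 1 and 2 had 9108 and 2705, and at a -log10 p of at least 5 with a log2 fold of at least 4 it was 500 and 176. The 3'UTR share of the called peaks then became 21.6% in IP replicate 1 at the lower and 16.9% and 12.0% at the stricter thresholds, and with no threshold it was 20.5% and 20.8%. With an overlap of at least 50% of both peaks, 13.5% of the peaks of IP replicate 1 and 26.4% of those of IP replicate 2 were shared, and with partners of any annotation the latter share was 52.9%. Of the 7194 tested 3'UTRs, DESeq2 called 747 higher and 66 lower, and library-size scaling 3327 and 75. The filter of 1 read tested 12521 3'UTRs and called 981 higher and 686 lower. With the filter of 30 reads 4645 were tested, of which 1659 were higher and 246 lower. DESeq2 called 7 genes with a higher and 205 with a lower 3'UTR than coding region, an alternative chosen after seeing the data.

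Of the read folds of 59 named genes, 51 kept their side of the threshold with DESeq2 and 51 with library-size scaling. It was 58 with the filter of 1 read and 47 with that of 30 reads, where some of the 59 had too few reads for a value. No gene called in the main fit changed direction, but some uncalled genes did. With library-size scaling CDK6 went from -0.02 to 0.61 and LCP1 from -0.18 to 0.46. Without 1 IP library a single IP library is compared with a single input, so there are values but no test and no count of calls. No paired analysis was possible because the input has 1 library and shares no replicate number with both IP libraries. IP replicate 2 had fewer reads and fewer peaks, and the part of depth in this was not tested. The lone input leaves its own spread unmeasured.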
